A study of Mus musculus with 8 samples.

Results

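The subunits of the mitochondrial respiratory chain and ATP synthase were taken from the gene count table by name. Protein-coding rows whose symbols belong to the families of complex I (Nduf), complex III (Uqcr and Cyc1), complex IV (Cox4 to Cox8) and complex V (Atp5), or to the protein-coding genes of the mitochondrial genome, gave 96 of 55450 rows. Of these, 83 are nuclear, with 36 in complex I, 9 in complex III, 20 in complex IV and 18 in complex V. The other 13 lie on the mitochondrial genome, with 7 in complex I, 1 in complex III, 3 in complex IV and 2 in complex V. Ndufa4 and its paralog Ndufa4l2 carry a complex I name and were counted with complex IV, where the Ndufa4 protein resides. The names also matched Cox7a2l, a supercomplex assembly factor, and a pair of rows named Atp5o, which are kept apart by identifier.

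Expression was measured by sequencing the 3′ ends of polyadenylated RNA (QuantSeq FWD) in 2 myeloid populations sorted from GL261 tumors, a mouse glioma line grown in the brains of wild-type (WT) mice. Bone marrow-derived macrophages (BMDM, blood-derived cells that enter the tumor) gave 5 libraries and resident microglia (MG) gave 3. Both sorts took F4/80+ CD11b+ LY6G- cells with low or no LY6C. BMDM were CD45+ with high CD49d, and microglia had low CD45 and low or no CD49d, so CD49d and CD45 were used to separate them. The labels do not say whether libraries came from separate mice, and p-values measure only the spread between these libraries. No age or treatment other than the tumor is given for either group.

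The respiratory chain passes electrons from NADH through complexes I, III and IV to oxygen, and the protons pumped on the way drive ATP synthesis by complex V. Each of these complexes is built from proteins of both genomes. The mitochondrial genome encodes hydrophobic core subunits and is transcribed as long precursor RNAs, while the remaining subunits are nuclear genes whose proteins are imported. Macrophages and microglia shift between oxidative phosphorylation and glycolysis with their activation state.

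BMDM libraries held 5890406 to 9169531 counts and microglia libraries 10491469 to 16659154, so depth and group cannot be told apart. BMDM 4 and BMDM 5 stood apart from BMDM 1 to 3. Gm42418, a predicted gene lying over ribosomal RNA, took 41.2% and 48.9% of the counts in BMDM 4 and 5 but 14.8% to 19.8% in BMDM 1 to 3, while the microglia range was 34.0% to 47.0%. BMDM 4 and 5 detected 13346 and 14638 genes, BMDM 1 to 3 detected 20011 to 21778, and microglia detected 17572 to 22809. Results that rest on BMDM 4 and 5 are therefore given with and without them. Levels are given in CPM, counts scaled to a common library size with edgeR's TMM factors. The 9 microglia markers summed to 750.0 to 1736 in BMDM and 2329 to 6841 in microglia. The 8 monocyte-derived macrophage markers summed to 957 to 3686 in BMDM and 308 to 660 in microglia. These sums were ordered as the labels say, but not every marker was. Vim had 317 to 477 CPM in BMDM and 177.5 to 512 CPM in microglia. Tmem119 had 29.0 to 205 CPM in BMDM and 136 to 391 CPM in microglia. Fcrls had 10.5 to 111 CPM in BMDM and 37.3 to 175 CPM in microglia. No other marker of these lists overlapped between the groups. Among other cell types, 6 neutrophil markers summed to 43.1 to 104 CPM in BMDM and 2.11 to 12.04 CPM in microglia, with Ly6g at 0 in 3 BMDM and all microglia libraries and at most 0.138 CPM in the others. The 6 T cell markers summed to 24.3 to 83.1 CPM in BMDM and 3.56 to 14.9 CPM in microglia, and the 5 astrocyte markers to 17.3 to 44.1 CPM in BMDM and 95.8 to 151 CPM in microglia. The astrocyte sum rested on Slc1a3 (0 to 15.1 CPM in BMDM and 84.6 to 134 CPM in microglia), while Gfap had 0 to 9.23 CPM in BMDM and 0.556 to 0.894 CPM in microglia, Gja1 and Aqp4 overlapped between the groups, and Aldoc had 7.05 to 22.4 CPM in BMDM and 2.23 to 7.54 CPM in microglia. The 4 endothelial markers summed to 37.9 to 72.4 CPM in BMDM and 18.0 to 35.7 CPM in microglia. Single markers often overlapped where the sums did not. Of the neutrophil markers, only S100a8 and S100a9 were higher in every BMDM library than in every microglia library. Of the T cell markers, only Cd3e was. Each endothelial marker overlapped between the groups. These sums move with the groups, and their part in the results was not tested. In sorted bulk samples, fewer cells of a type and less RNA per cell cannot be told apart.

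The balance between the genomes differed between the populations. For every count on a nuclear subunit gene, BMDM libraries 1 to 5 had 0.484, 0.744, 0.806, 0.7101 and 0.501 counts on mitochondrial subunit genes, against 1.53, 1.39 and 1.92 in microglia 1 to 3. Every BMDM library lay below every microglia library, and BMDM averaged 0.649 ± 0.147 (SD, n = 5) against 1.61 ± 0.274 (SD, n = 3) in microglia. The mean of the log2 ratios was lower in BMDM by 2.51-fold (log2 difference -1.33). This ratio needs no scaling between libraries, and it is a sum over chosen genes, so it carries no p-value. It was -1.27 on the log2 scale with BMDM 1 to 3 alone, -1.42 with BMDM 4 and 5 alone, and -1.43 to -1.20 when each library was left out in turn.

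Both sides of the ratio varied within BMDM. Nuclear subunit mRNAs made up 2.34%, 2.74%, 1.91%, 1.31% and 0.773% of nuclear protein-coding counts in BMDM 1 to 5, against 1.15%, 1.05% and 0.604% in microglia 1 to 3. BMDM 1 to 4 were above all microglia and BMDM 5 was within their range. Mitochondrial subunit mRNAs, set against the same total, stood at 1.13%, 2.03%, 1.54%, 0.931% and 0.387% in BMDM 1 to 5 and at 1.76%, 1.45% and 1.16% in microglia 1 to 3. Here the groups overlapped, with BMDM 2 the highest library and BMDM 5 the lowest. In BMDM 1 to 3 the nuclear shares were above every microglia library while the mitochondrial shares spanned the microglia range. In BMDM 4 and 5 the mitochondrial shares were below every microglia library.

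**Figure D1:**
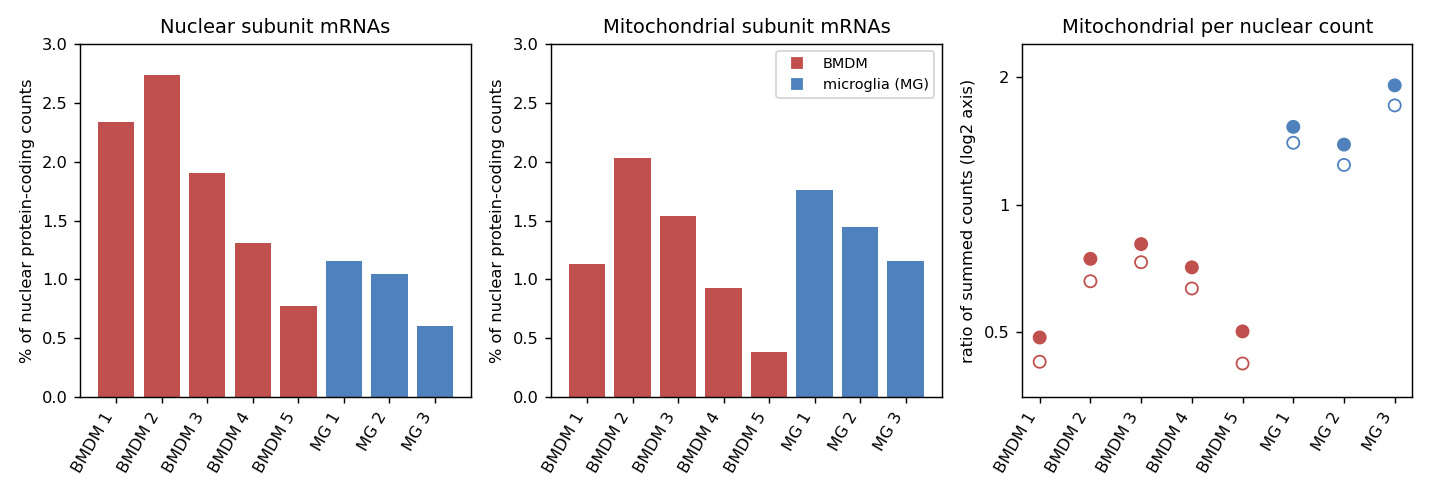
Summed counts of respiratory chain genes in each library, as a percentage of nuclear protein-coding counts for nuclear genes (left) and mitochondrial genes (middle), and the ratio of mitochondrial to nuclear counts on a log2 axis (right). Filled points use all mitochondrial members and open points the 6 mitochondrial genes with few or no shared windows; BMDM lie at 0.484 to 0.806 and microglia (MG) at 1.39 to 1.92 for filled points.

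Other gene groups served to place this ratio. Counts of the mitochondrial rRNA genes, which share precursor RNAs with the heavy-strand mRNAs, were 3.13 to 5.23 per nuclear subunit count in BMDM and 6.22 to 6.63 in microglia, without overlap. The log2 difference was -0.94 with BMDM 1 to 3 and -0.33 with BMDM 4 and 5. Per mitochondrial subunit count, mitochondrial rRNA stood at 4.19 to 9.79 in BMDM and 3.46 to 4.54 in microglia, and the groups overlapped. Mitochondrial subunit counts per count on cytosolic ribosomal protein genes were 0.109 to 0.201 in BMDM and 0.256 to 0.401 in microglia, and per count on mitochondrial ribosomal protein genes 1.61 to 4.87 in BMDM and 5.51 to 6.34 in microglia. Neither pair of ranges overlapped. Nuclear subunit counts per cytosolic ribosomal protein count were 0.206 to 0.273 in BMDM and 0.185 to 0.213 in microglia and overlapped. Cytosolic ribosomal protein genes themselves took 10.4%, 13.3%, 7.66%, 4.80% and 3.20% of nuclear protein-coding counts in BMDM 1 to 5, against 5.43%, 5.65% and 2.89% in microglia 1 to 3, which is the order of libraries seen for nuclear subunits within each group apart from microglia 1 and 2.

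Of the 13 mitochondrial genes, 8 passed the filter on low counts and none was called in either direction in the comparison of all 8 libraries. A call is an adjusted p under 0.05, from edgeR's quasi-likelihood F test and the Benjamini-Hochberg method over the 16467 genes tested, of which 1.11% were called higher in BMDM and 0.814% lower. mt-Cytb, the catalytic subunit of complex III encoded in the mitochondrion, had 1531, 2830, 2440, 1486 and 381 CPM in BMDM 1 to 5, against 2152, 1872 and 1535 CPM in microglia 1 to 3. BMDM 2 and 3 were above every microglia library and BMDM 1, 4 and 5 below, so the groups overlapped (log2 fold change -0.10 ± 0.53, SE). mt-Nd1, mt-Nd2, mt-Nd4 and mt-Nd5, core subunits of the complex I membrane arm, had log2 fold changes of -0.07, -0.51, -0.14 and 0.00. mt-Co1, the catalytic subunit of complex IV, had 749, 1145, 909, 623 and 362 CPM in BMDM 1 to 5, against 709, 773 and 729.7 CPM in microglia 1 to 3 (log2 fold change 0.04 ± 0.42, SE). The 3 microglia libraries lay close together within the wider range of BMDM.

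Set against nuclear subunit counts, 6 of these 8 genes (mt-Nd1, mt-Nd2, mt-Nd4, mt-Nd5, mt-Cytb and mt-Co1) were lower in every BMDM library than in every microglia library. By the same measure, 18.8% of all genes tested were below in every BMDM library. With BMDM 1 to 3 alone it was again 6 of 8, but 53.7% of all genes tested were also below, so in those libraries most genes were low against the nuclear subunit counts. mt-Cytb stood at 0.121, 0.176, 0.198, 0.183 and 0.0844 per nuclear subunit count in BMDM 1 to 5, against 0.369, 0.343 and 0.414 in microglia 1 to 3. mt-Nd2 was at 0.0491 to 0.107 in BMDM and 0.167 to 0.398 in microglia. mt-Nd3 and mt-Nd6 overlapped between groups. These values split the ratio between the genomes by gene and are no separate evidence for it.

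mt-Nd6 is the only subunit gene on the light strand of the mitochondrial genome. It had 50.9, 67.0, 63.5, 49.98 and 19.9 CPM in BMDM 1 to 5, against 38.6, 29.2 and 12.7 CPM in microglia 1 to 3. All BMDM libraries but BMDM 5 were above all microglia, and BMDM 5 lay among them (log2 fold change 0.90 ± 0.45, SE, edgeR's adjusted p = 0.412). Its share of mitochondrial subunit counts was 0.559% to 0.880% in BMDM and 0.179% to 0.434% in microglia, without overlap. mt-Nd6 overlaps mt-Nd5 on the opposite strand, and no source used here states whether counting used strand.

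The other 5 mitochondrial genes had too few counts to compare. mt-Nd4l and mt-Atp8 had 0 counts in every library, mt-Co2 had 9 and mt-Co3 had 26 counts over all 8 libraries. mt-Atp6, the proton channel of complex V, had 1333 counts in BMDM 2, 1 in microglia 1 and 0 elsewhere. Complex V was therefore not measured on its mitochondrial side. Of the 75-base windows in the last 500 bases of these genes, 98.7% for mt-Nd4l, 99.3% for mt-Co2, 99.8% for mt-Co3 and 99.3% for mt-Atp6 are found exactly in another annotated gene, chiefly unprocessed pseudogenes on chromosome 1. The reads were 75 bases long, per the labels, and the handling of reads with several matches is not stated. mt-Atp8 shares no window, but overlaps mt-Atp6 on the same strand, as mt-Nd4l overlaps mt-Nd4. mt-Nd3 (97.8%) and mt-Co1 (95.1%) share as much and still had 1723 and 57146 counts. Values of mt-Nd3 and mt-Co1 are therefore uncertain. With only the 6 genes at 12.9% or less and a count in every library, the ratio of mitochondrial to nuclear counts was 0.420 to 0.730 in BMDM and 1.24 to 1.72 in microglia (log2 difference -1.37).

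The last windows of some of the genes follow, read 5′ to 3′ from GENCODE M21 transcripts on GRCm38, in lower case throughout. mt-Co2 and mt-Co3 give the last window that another gene also holds (Gm28661 and Gm28437), and mt-Cytb and mt-Nd1 the last 75 bases, which no other annotated gene holds.
mt-Co2, chrM:7619-7693 plus strand: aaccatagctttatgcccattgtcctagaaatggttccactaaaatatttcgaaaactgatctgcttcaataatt
mt-Co3, chrM:9315-9389 plus strand: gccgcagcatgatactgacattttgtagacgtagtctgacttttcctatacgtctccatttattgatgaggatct
mt-Cytb, chrM:15214-15288 plus strand: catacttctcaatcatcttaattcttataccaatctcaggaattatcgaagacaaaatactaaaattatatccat
mt-Nd1, chrM:3633-3707 plus strand: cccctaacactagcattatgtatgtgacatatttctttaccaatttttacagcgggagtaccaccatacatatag
The first pair had 9 and 26 counts in all, the second pair 141233 and 140083. Genes not shown differ from this order. The last 75 bases of mt-Co1 are also in Gm29216, and mt-Co1 had 57146 counts. Those of mt-Atp8 are in no other annotated gene, and mt-Atp8 had 0. The part of shared sequence in the counts was not tested. The pseudogenes with the matching windows had few counts as well, Gm28661 at most 61 and Gm28437 at most 32 in a library.

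Nuclear subunit genes were mostly higher in BMDM, and few differences passed the test over all 8 libraries. The median log2 fold change was 1.07 over the 77 nuclear members that passed the filter on low counts, against 0.08 over all genes tested and -0.03 over the 8 mitochondrial members. Scaled by library totals, these medians were 1.19, 0.20 and 0.16, so the mitochondrial median changed sign with the scaling. By complex it was 1.04 in complex I (36 genes), 0.80 in complex III (9), 1.30 in complex IV (15) and 1.02 in complex V (17). A positive value was found for 69 of the 77 nuclear members, against 53.1% of all genes tested, and for 4 of the 8 mitochondrial members. Only Ndufb7 was called higher and no member was called lower. At an unadjusted p under 0.05 there were 35 higher and 0 lower members, where 6.49% of all genes were higher and 7.27% lower. DESeq2 called 15 members higher and 0 lower (3.65% and 1.9% of all genes), and limma-voom with sample quality weights called 46 higher and 0 lower (6.46% and 10.2% of all genes).

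In the comparison of BMDM 1 to 3 alone with microglia, 50 of 84 members tested were called higher and 0 lower, against 6.35% of genes higher and 8.11% lower. The 50 were 25 of 36 in complex I, 5 of 9 in complex III, 9 of 15 in complex IV and 11 of 16 in complex V, and 0 of 8 mitochondrial members. Median log2 fold changes there were 1.37 for nuclear and 0.35 for mitochondrial members, against 0.09 over all genes, and 69 of 76 nuclear members had a positive value, against 53% of all genes. Scaling by library totals gave 52 called members, where 7.87% of genes were called higher and 3.63% lower and the median over all genes was 0.40. In the opposite case, BMDM 4 and 5 alone against microglia, no member was called by edgeR's quasi-likelihood test, where 0.0683% of genes were called higher and 0.0372% lower. The medians were then 0.23 for nuclear and -1.02 for mitochondrial members. Few genes of any kind were called there, so the lack of member calls cannot show which libraries the calls rest on. These comparisons share the 3 microglia libraries. Gm42418 took 14.8% to 19.8% of counts in BMDM 1 to 3 and 34.0% to 47.0% in microglia. In the comparison of BMDM 1 to 3 with microglia, library makeup and group therefore cannot be told apart. Leaving out BMDM 5 only gave 26 called members, all higher, with 3.38% of genes called higher and 3.79% lower.

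**Figure D2:**
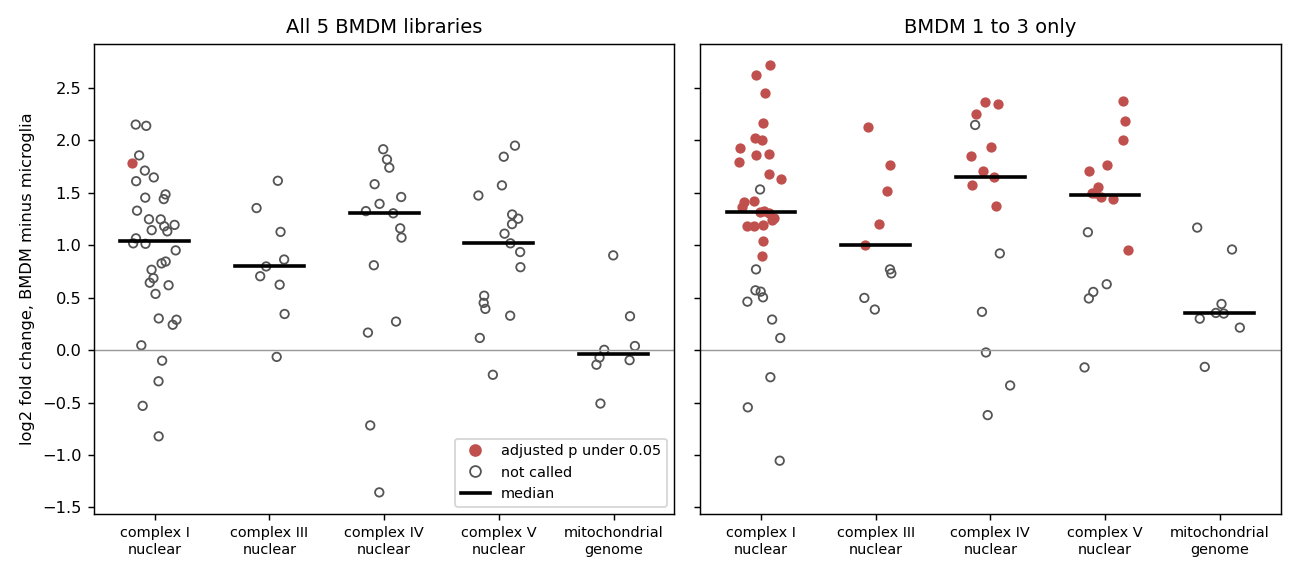
Log2 fold changes (BMDM minus microglia) of the members that passed the filter on low counts, by complex and genome, with all 5 BMDM libraries (left) and with BMDM 1 to 3 (right). Filled points are genes with an adjusted p under 0.05 and bars are medians; nuclear medians are 0.80 to 1.30 on the left, and the mitochondrial median is -0.03 (0.16 with scaling by library totals).

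Gene length and library makeup moved with these differences. Over protein-coding genes outside the respiratory chain, the median log2 fold change was 0.79 for the 260 genes with under 1000 bases of exon, 0.43 from 1000 to 2000 bases, 0.05 from 2000 to 4000 and -0.18 above. In the shortest class, 28.6% were called higher with BMDM 1 to 3 alone. The nuclear subunits had medians of 1.20 under 1000 bases (19 genes), 1.04 from 1000 to 2000 bases (30 genes) and 0.78 from 2000 bases (28 genes), each above other genes of like length. Cytosolic ribosomal protein genes, a further set of short and abundant mRNAs, had a median of 0.70 with 0 called over 8 libraries and 45 of 91 called higher with BMDM 1 to 3, while mitochondrial ribosomal protein genes had a median of 0.36 and 15 of 76 called higher with BMDM 1 to 3. Over all genes tested with BMDM 1 to 3, 6.35% were called higher. The part of gene length in the result was not tested.

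A comparison within libraries avoided the scaling step. It splits the ratio between the genomes by gene, so it is no separate evidence for that ratio. When each gene's count was divided by the library's mitochondrial subunit count, 37 of the 77 nuclear members were higher in every BMDM library than in every microglia library, against 5.51% of the 16445 nuclear genes tested, and 0 were lower in every BMDM library, against 3.17%. The 37 comprised 21 of 36 in complex I, 4 of 9 in complex III, 5 of 15 in complex IV and 7 of 17 in complex V. With BMDM 1 to 3 alone there were 51 higher and 3 lower, against 13.1% and 19.8% of nuclear genes. On the CPM scale, 9 nuclear members were above microglia in every BMDM library, against 4.32% of all genes, and 0 were below, against 8.66%. The 9 were Ndufa2, Ndufa3, Ndufb7 and Ndufs6 of complex I, Uqcr11 and Uqcrh of complex III, and Atp5a1, Atp5e and Atp5h of complex V. In BMDM 1 to 3 alone, 59 nuclear members were above every microglia library, against 19.6% of all genes, and 0 were below, against 19.7%.

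In complex I, the called gene was Ndufb7 (chr8:83566671-83571626, plus strand, GRCm38), an accessory subunit of the membrane arm. It had 109, 122, 125, 91.2 and 67.0 CPM in BMDM 1 to 5, against 32.5, 29.3 and 28.0 CPM in microglia 1 to 3. Every BMDM library was above every microglia library, and BMDM 5 was the lowest of its group. The difference was 3.44-fold (log2 fold change 1.78 ± 0.35, SE, edgeR's adjusted p = 0.0167). Without any 1 microglia library it was no longer called, with edgeR's adjusted p of 0.101, 0.118 and 0.134 and log2 fold changes of 1.83, 1.73 and 1.67 without microglia 1, 2 and 3, nor was it called with BMDM 4 and 5 alone (1.39, edgeR's adjusted p = 0.143).

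Ndufa1 and Ndufc1, small accessory subunits of the membrane arm, had the largest fold changes in complex I. Ndufa1 had 328, 494, 330.4, 109 and 31.9 CPM in BMDM 1 to 5, against 82.6, 83.1 and 8.90 CPM in microglia 1 to 3. BMDM 1 to 4 were above all microglia and BMDM 5 was below microglia 1 and 2 (log2 fold change 2.15 ± 0.82, SE, edgeR's adjusted p = 0.241). Ndufc1 had 208, 338, 192, 101 and 41.1 CPM in BMDM 1 to 5, against 49.0, 40.0 and 30.8 CPM in microglia 1 to 3, where only BMDM 5 was below a microglia library. It had a log2 fold change of 2.14 ± 0.57 (SE, edgeR's adjusted p = 0.0738). With BMDM 1 to 3 alone the log2 fold changes were 2.72 for Ndufa1 and 2.63 for Ndufc1, with edgeR's adjusted p of 0.0173 and 0.00108.

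Ndufa2 and Ndufa3 separated the groups on the CPM scale without a call. Ndufa2, an accessory subunit of the peripheral arm, had 522, 522, 507, 372 and 396 CPM in BMDM 1 to 5, against 227, 229 and 174 CPM in microglia 1 to 3, with no overlap (log2 fold change 1.14 ± 0.36, SE, edgeR's adjusted p = 0.144). Ndufa3 had 250.5, 322, 251, 149 and 90.8 CPM in BMDM 1 to 5, against 76.0, 84.1 and 43.6 CPM in microglia 1 to 3, again with no overlap (log2 fold change 1.65 ± 0.46, SE, edgeR's adjusted p = 0.0886). Ndufa2 overlaps Tmco6, and Ndufa3 overlaps Tfpt, on the opposite strand.

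The 7 nuclear core subunits of complex I, which carry the flavin and iron-sulfur clusters, had a median log2 fold change of 0.69, and the 29 accessory subunits one of 1.14. Of these, 3 core and 22 accessory subunits were called higher with BMDM 1 to 3, against 6.35% of all genes. This difference between the classes was not tested. Ndufs1, the largest core subunit with iron-sulfur clusters of the NADH-oxidizing module and outside the rule for naming, was singled out after its values were seen as the complex I gene with the lowest fold change. It had 11.7, 19.9, 8.46, 29.0 and 10.2 CPM in BMDM 1 to 5, against 35.6, 19.2 and 29.3 CPM in microglia 1 to 3 (log2 fold change -0.82 ± 0.46, SE, not called). BMDM 1, 3 and 5 were below all microglia and BMDM 2 and 4 lay within their range. Ndufs1 overlaps Eef1b2 and Ino80dos on the opposite strand.

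**Figure D3:**
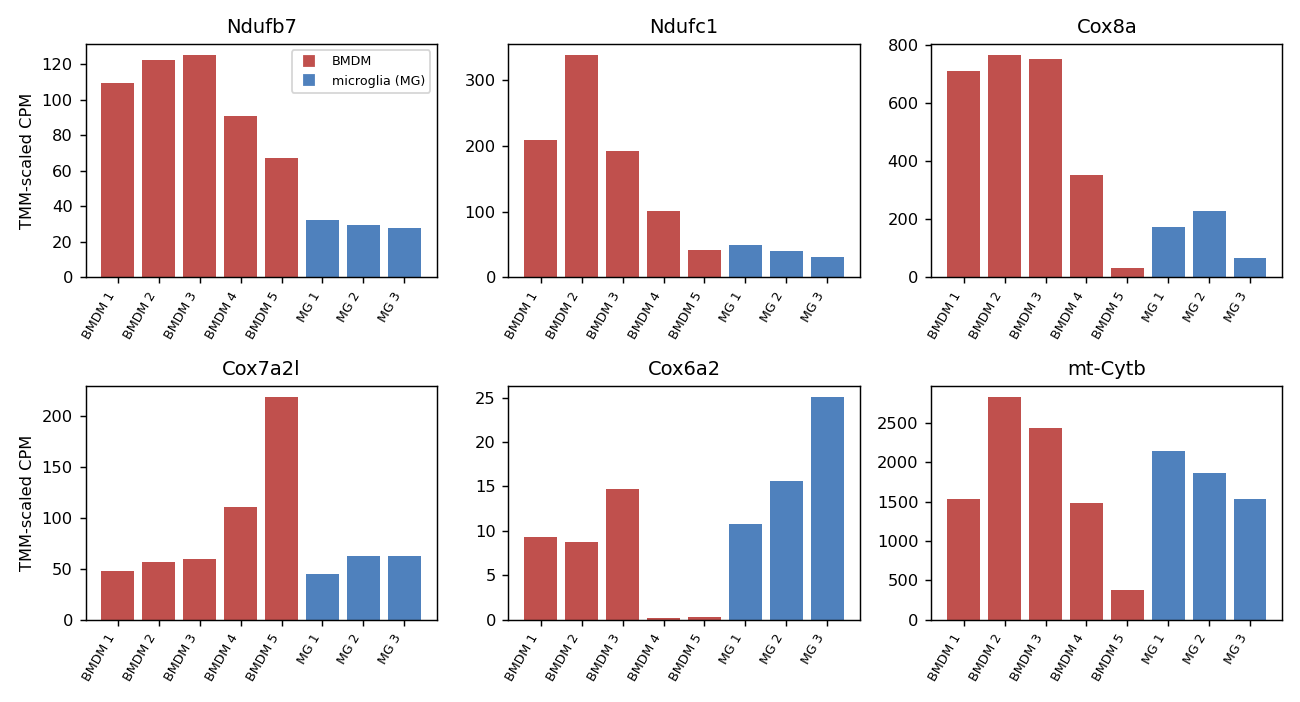
TMM-scaled CPM in each library for 6 respiratory chain genes; each bar is 1 library and each axis starts at 0. Ndufb7 separates the groups (67.0 to 125 CPM in BMDM, 28.0 to 32.5 CPM in microglia, MG), Ndufc1 and Cox8a overlap through BMDM 5, Cox7a2l is highest in BMDM 5, Cox6a2 is near 0 in BMDM 4 and 5, and mt-Cytb overlaps.

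In complex III, Uqcrh, the hinge protein that assists electron transfer to cytochrome c, separated the groups. It had 252, 311, 208, 217 and 186 CPM in BMDM 1 to 5, against 143, 129 and 115 CPM in microglia 1 to 3, with no overlap (log2 fold change 0.86 ± 0.35, SE, edgeR's adjusted p = 0.268). Uqcrfs1, the Rieske iron-sulfur protein and a catalytic subunit, had 108, 141, 101, 41.1 and 16.0 CPM in BMDM 1 to 5, against 41.2, 24.1 and 14.4 CPM in microglia 1 to 3. BMDM 1 to 3 were above all microglia and BMDM 4 and 5 within their range. Its log2 fold change of 1.61 ± 0.60 (SE) was not called over 8 libraries and was 2.13 with BMDM 1 to 3 (edgeR's adjusted p = 0.00479). Uqcrb, a small structural subunit with 17.5% of its 75-base windows shared with pseudogenes, had log2 fold changes of 1.35 over 8 libraries and 1.77 with BMDM 1 to 3. Uqcr10 and Uqcrq, also small structural subunits, had 1.13 and 0.80 over 8 libraries and 1.51 and 1.21 with BMDM 1 to 3, where Uqcrh, Uqcrb, Uqcr10, Uqcrq and Uqcrfs1 were all called.

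In complex IV, the 10 subunits and common isoforms found in most tissues had a median log2 fold change of 1.36. With BMDM 1 to 3, 9 of the 10 were called higher, against 6.35% of all genes. Cox8a, the common isoform of subunit 8, had 713, 767, 752, 354 and 33.2 CPM in BMDM 1 to 5, against 175, 229 and 66.5 CPM in microglia 1 to 3. BMDM 1 to 4 were above all microglia and BMDM 5 below all of them, and the log2 fold change of 1.74 ± 0.76 (SE) was not called. With BMDM 1 to 3 it was 2.25 (edgeR's adjusted p = 0.00625). Cox6b1, on the intermembrane space side of the complex, had 311, 372, 274, 159 and 49.6 CPM in BMDM 1 to 5, against 89.5, 71.6 and 24.2 CPM in microglia 1 to 3. Again BMDM 5 alone lay among the microglia values (log2 fold change 1.92 ± 0.61, SE, edgeR's adjusted p = 0.142, and 2.37 with BMDM 1 to 3, adjusted p = 0.00576). Cox7b, Cox7a2 and Cox6c, further structural subunits, had log2 fold changes of 1.82, 1.46 and 1.31 over 8 libraries and 2.34, 1.94 and 1.86 with BMDM 1 to 3, where each was called. Cox4i1, the common isoform of subunit 4, was the exception among the 10, with 184, 268, 228, 230.2 and 164 CPM in BMDM 1 to 5, against 147, 204 and 182 CPM in microglia 1 to 3. The groups overlapped (log2 fold change 0.27 ± 0.34, SE, and 0.36 with BMDM 1 to 3).

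The tissue isoforms of complex IV were at low levels. Cox6a1, the common isoform of subunit 6a, had 113 to 549 CPM in BMDM and 124 to 196 CPM in microglia, and a log2 fold change of 1.57 with BMDM 1 to 3 (called). Its heart and muscle counterpart Cox6a2 had 70, 71, 129, 1 and 2 counts in BMDM 1 to 5, against 205, 155 and 225 counts in microglia 1 to 3, or 0.159 to 14.8 CPM in BMDM and 10.8 to 25.03 CPM in microglia. BMDM 4 and 5 were near 0, BMDM 3 lay within the microglia range, and the log2 fold change of -1.36 ± 0.97 (SE) was not called. Cox6a2 lies within the span of Itgad on the opposite strand, and without strand their reads cannot be told apart. Cox7a1, the muscle isoform of subunit 7a, had 102, 172, 121, 38 and 0 counts in BMDM 1 to 5, against 65, 68 and 6 counts in microglia 1 to 3 (log2 fold change 1.58 ± 1.16, SE, not called). Cox4i2, an isoform of subunit 4 known from lung and low oxygen, had 5, 18, 13, 0 and 0 counts in BMDM 1 to 5 and 0 in each microglia library, and did not pass the filter. Cox6b2, a testis isoform, had 0 to 51 counts in BMDM and 8 to 37 in microglia. Cox7b2, Cox8b and Cox8c were at or near 0.

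A further pair did not follow the common subunits. Cox7a2l, the supercomplex factor, had 48.1, 56.3, 59.7, 110.2 and 218 CPM in BMDM 1 to 5, against 44.6, 61.9 and 62.0 CPM in microglia 1 to 3. BMDM 4 and 5 were above all other libraries and BMDM 1 to 3 within the microglia range, so its log2 fold change was 0.81 over 8 libraries and -0.02 with BMDM 1 to 3, not called in either. Ndufa4 had 12.7, 31.8, 9.38, 3.82 and 11.5 CPM in BMDM 1 to 5, against 23.4, 30.9 and 14.0 CPM in microglia 1 to 3. BMDM 2 was the highest of all and the other BMDM were below every microglia library (log2 fold change -0.72 ± 0.57, SE, not called). Ndufa4l2 had 6 counts, all in BMDM 2.

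In complex V, the c subunit of the rotor ring is encoded by 3 nuclear genes with the same mature protein. Atp5g1 had 37.0, 54.9, 45.2, 49.5 and 6.91 CPM in BMDM 1 to 5, against 16.1, 10.6 and 3.23 CPM in microglia 1 to 3. BMDM 1 to 4 were above all microglia and BMDM 5 among them (log2 fold change 1.95 ± 0.63, SE, edgeR's adjusted p = 0.154, and 2.18 with BMDM 1 to 3, adjusted p = 0.0139). Atp5g3 had 779.6, 959, 669, 267 and 123 CPM in BMDM 1 to 5, against 332, 396 and 149 CPM in microglia 1 to 3. BMDM 1 to 3 were above all microglia and BMDM 5 below (log2 fold change 0.94 ± 0.60, SE, and 1.46 with BMDM 1 to 3, where it was called). Atp5g2 had at most 4.80 CPM in any library. Atp5g1 and Atp5g2 share 35.6% and 44.2% of their 75-base windows with other annotated genes, and Atp5g3 shares none.

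Atp5e, the epsilon subunit of the central stalk, had 456, 638, 549.7, 439 and 241 CPM in BMDM 1 to 5, against 208, 207 and 169.5 CPM in microglia 1 to 3, with no overlap (log2 fold change 1.25 ± 0.41, SE, edgeR's adjusted p = 0.152). Atp5j, the F6 subunit of the peripheral stalk, had 212, 405, 169.9, 101 and 18.4 CPM in BMDM 1 to 5, against 82.8, 51.5 and 16.9 CPM in microglia 1 to 3. BMDM 1 to 4 were above all microglia and BMDM 5 near the lowest (log2 fold change 1.84 ± 0.76, SE, not called, and 2.38 with BMDM 1 to 3, edgeR's adjusted p = 0.0137). Atp5k, the e subunit of the membrane part, had log2 fold changes of 1.20 over 8 libraries and 1.71 with BMDM 1 to 3, where it was called. By position in the enzyme, medians were 1.02 for the 5 genes of the F1 head and central stalk, 0.75 for 4 of the peripheral stalk and 1.20 for 7 of the membrane part, and with BMDM 1 to 3 they were 1.49, 1.03 and 1.71. The row Atp5o with identifier ENSMUSG00000022956, the OSCP subunit, had a log2 fold change of -0.24. It shares 42.7% of its windows and overlaps Gm15976 and D430001F17Rik on the opposite strand. The second Atp5o row, ENSMUSG00000116933, had 0 counts in all libraries and shares 82.6% of its windows.

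Within complexes that could be measured on both genomes, the mitochondrial to nuclear ratio was lower in BMDM in each. In complex I it was 0.938, 1.47, 1.68, 1.37 and 0.845 in BMDM 1 to 5, against 3.24, 2.95 and 3.69 in microglia 1 to 3. Complex III had 1.35, 2.11, 2.47, 1.94 and 0.850 in BMDM 1 to 5, against 3.83, 3.78 and 3.47 in microglia 1 to 3. Complex IV, with mt-Co1 as nearly its sole measured mitochondrial gene, had 0.186, 0.220, 0.218, 0.247 and 0.356 in BMDM 1 to 5, against 0.436, 0.466 and 0.801 in microglia 1 to 3. No complex had an overlap between the groups, and the log2 differences were -1.43, -1.17 and -1.19 for complexes I, III and IV. The complex IV value is uncertain, as mt-Co1 shares 95.1% of its windows with other annotated genes. BMDM 5 was the lowest BMDM library in complexes I and III and the highest in complex IV.

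**Figure D4:**
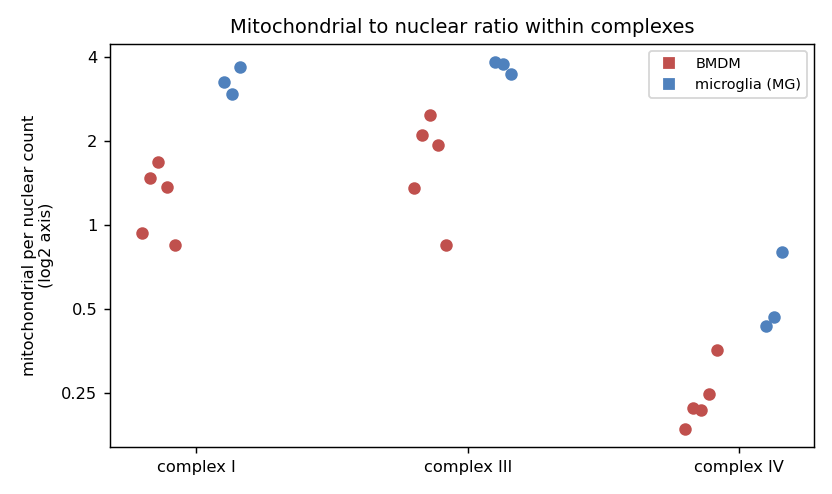
Mitochondrial counts per nuclear count within complexes I, III and IV on a log2 axis; each point is 1 library, in the order of the replicate numbers. BMDM lie below microglia (MG) in each complex, at 0.845 to 1.68 against 2.95 to 3.69 in complex I.

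The makeup of the nuclear subunit pool by complex was similar in most libraries. The share of complex I in nuclear subunit counts was 39.8% in BMDM 5 and lay between 31.8% and 33.1% in the other BMDM libraries, while microglia had 30.6% to 35.4%. The share of complex IV was 22.5% in BMDM 5 and lay between 30.9% and 34.0% in the other BMDM libraries, while microglia had 24.7% to 30.4%. Complex III gave 8.02% to 9.93% in BMDM and 9.08% to 11.96% in microglia. Complex V gave 26.2% to 27.7% in BMDM and 28.0% to 30.4% in microglia and was the only one of the 4 shares without overlap. As a share of nuclear protein-coding counts, complex V was 0.215% to 0.720% in BMDM and 0.169% to 0.351% in microglia.

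Levels also differed between libraries of one group. Against the mean of BMDM 1 to 3 on the log2 CPM scale, 72 of the 77 nuclear members were lower in BMDM 5, with a median difference of -1.66, where 56.4% of all genes tested were lower and their median was -0.32. For BMDM 4 the median was -0.76 over nuclear members and -0.44 over all genes. The mean log2 CPM over all genes was also lower, at 2.13 and 2.35 in BMDM 4 and 5 and 2.97 to 3.13 in BMDM 1 to 3. Microglia 3 had a median of -0.43 against microglia 1 and 2, with -0.12 over all genes. In BMDM 5, Cox8a, Cox7b, Cox7a2 and Atp5mpl were among the genes furthest below BMDM 1 to 3, and Cox7a2l was above. BMDM 5 also had the largest share of Gm42418, and the part of that share in the result was not tested.

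**Figure D5:**
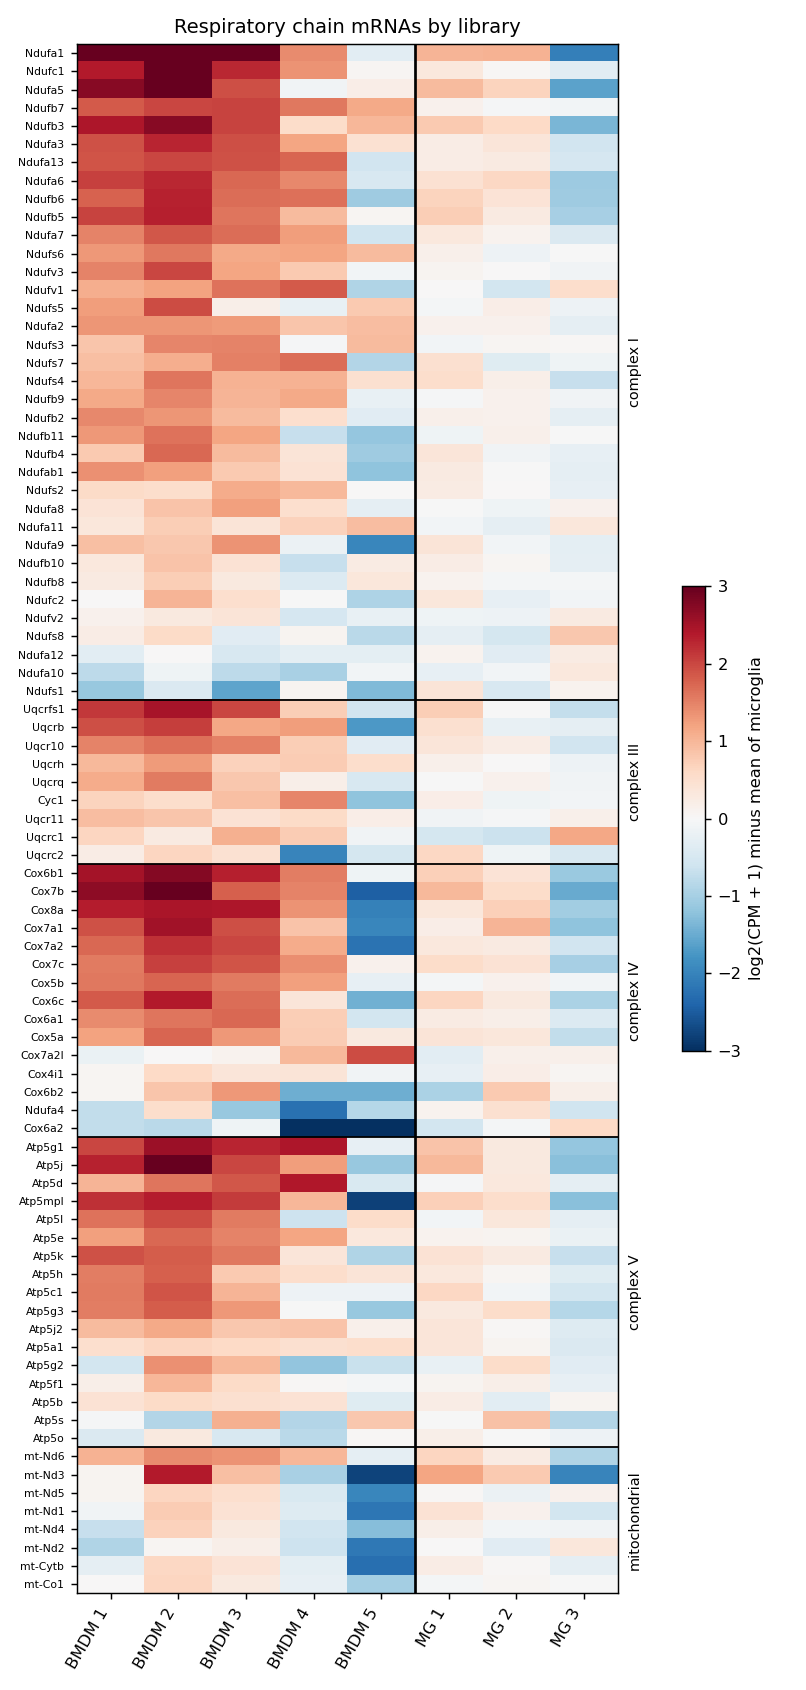
Log2(CPM + 1) of the 85 members that passed the filter on low counts, minus the microglia mean of each gene, by library; rows are genes ordered by fold change within complexes, and columns are BMDM 1 to 5 left of the line and microglia (MG) 1 to 3 right of it. Red is above the microglia mean and blue below; most nuclear genes are red in BMDM 1 to 3, and BMDM 5 is mixed, with the mitochondrial genes blue.

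Genes that assist the chain were described beside its subunits. No gene of the 6 lists below was called over all 8 libraries. With BMDM 1 to 3, complex II, which feeds electrons from succinate and is encoded by nuclear genes alone, had 3 of 4 genes called higher and 0 lower, against 6.35% and 8.11% of all genes. Sdhb had 115, 148, 147, 77.4 and 29.3 CPM in BMDM 1 to 5, against 62.4, 44.1 and 41.6 CPM in microglia 1 to 3, with only BMDM 5 outside the order. Its log2 fold change was 1.48 with BMDM 1 to 3 and 1.07 over 8 libraries. Sdha had 0.97 with BMDM 1 to 3 and 0.94 over 8 libraries. Sdhc had 59.4, 80.5, 96.2, 15.9 and 10.8 CPM in BMDM 1 to 5, against 42.4, 37.1 and 26.1 CPM in microglia 1 to 3. For Sdhc BMDM 1 to 3 were above all microglia and BMDM 4 and 5 below all of them, and its log2 fold change was 1.17 with BMDM 1 to 3 and 0.58 over 8 libraries. Among electron carriers, adenine nucleotide carriers and the ATP synthase inhibitor, 1 of 9 was called higher and 0 lower, against 6.35% and 8.11% of all genes. The called gene was Atpif1, the inhibitor itself (log2 fold change 1.62 with BMDM 1 to 3, and 1.33 over 8 libraries). Cycs, which encodes cytochrome c, had 0.72 and was not called.

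Assembly factors help to build the complexes and are not part of the finished enzymes. Complex I factors had 1 of 16 called higher with BMDM 1 to 3, Ndufaf8 (log2 fold change 1.44), which is close to the 6.35% of all genes. Factors of complexes III, IV and V had 6 of 30 called higher, with Higd1a at 2.29 (1.84 over 8 libraries) and Pet100 at 2.15 (1.64 over 8 libraries). Cox16, also called, had 42, 136, 35, 0 and 0 counts in BMDM 1 to 5, against 18, 4 and 1 counts in microglia 1 to 3. BMDM 4 and 5 thus had no Cox16 count, and its log2 fold change of 4.06 holds for BMDM 1 to 3 only. Among the subunits, 59.5% of members tested were called, and the difference between the sets was not tested. Among 24 genes of mitochondrial genome transcription, replication and RNA handling, 1 was called higher and 1 lower, against 6.35% and 8.11% of all genes. Neither count was above the share over all genes. Slirp, a partner of Lrpprc in mitochondrial mRNA stability, was the gene called higher (1.62, and 1.22 over 8 libraries). Polg, the mitochondrial DNA polymerase, was the gene called lower (-1.65, and -1.31 over 8 libraries). Tfam, the transcription and packaging factor of the mitochondrial genome, had -0.39 and was not called.

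Among 14 regulators of nuclear respiratory genes tested with BMDM 1 to 3, 0 were called higher and 4 lower, against 6.35% and 8.11% of all genes, namely Myc (log2 fold change -2.98), Pprc1 (-1.91), Gabpa (-1.63) and Sp1 (-1.05). Over 8 libraries, where none was called, they had -2.18, -0.18, -0.74 and -1.08. Pprc1, a coactivator of the PGC-1 family, had 2.53, 3.94, 5.03, 34.9 and 17.7 CPM in BMDM 1 to 5, against 20.9, 12.2 and 10.5 CPM in microglia 1 to 3. Pprc1 was thus below all microglia in BMDM 1 to 3, highest of all in BMDM 4 and within the microglia range in BMDM 5. Myc, a growth regulator, had 1.73, 4.43, 5.15, 4.78 and 17.1 CPM in BMDM 1 to 5, against 25.8, 36.7 and 27.9 CPM in microglia 1 to 3, with no overlap. Gabpa, a subunit of the GABP factor, had 6.66, 6.03, 4.80, 6.37 and 30.7 CPM in BMDM 1 to 5, against 17.1, 21.8 and 15.8 CPM in microglia 1 to 3. Gabpa was below all microglia in BMDM 1 to 4 and above them in BMDM 5. Gabpa and Atp5j overlap on opposite strands. Nrf1, the nuclear respiratory factor, had 0.03 and was not called.

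Promoters were searched for the short motifs of factors known for respiratory genes, since many members differed in the same direction. RefSeq (GRCm38.p6) promoters of 300 bases, 250 before to 50 after the start, were found for 66 of the 82 nuclear genes, 71 promoters in all. The GABP motif CCGGAAG, on either strand, was in 19.7% of the 71, against 8.86% of all 32851 promoters. The YY1 motif AAGATGGC was in 14.1%, against 2.75%, the NRF1 motif GCGCATGCGC in 7.04%, against 0.971%, and the motif of estrogen-related receptors, TCAAGGTCA, in 1.41%, against 0.423%. The NRF1 motif is its own reverse complement, and 1 of all promoters held overlapping matches of different motifs. Most YY1 matches of members lay after the start, such as at base 23 in Ndufc1 and base 39 in Ndufb8. Those of Atp5f1 and Atp5j lay before it. The YY1 string contains ATG, and the part of coding starts in these matches was not tested. A match is a string of letters in the window, and no binding was measured. The promoters of 4 members whose levels are described above are given 5′ to 3′ on the gene's strand, with motif matches in capitals: GABP in Ndufb7, 2 GABP matches in Cox8a, NRF1 and then GABP in Cox6a1, and YY1 and then GABP in Atp5j. Atp5j has a second RefSeq promoter, which holds none of the 4 motifs and is not shown.
Ndufb7, chr8:83566508-83566807 plus strand: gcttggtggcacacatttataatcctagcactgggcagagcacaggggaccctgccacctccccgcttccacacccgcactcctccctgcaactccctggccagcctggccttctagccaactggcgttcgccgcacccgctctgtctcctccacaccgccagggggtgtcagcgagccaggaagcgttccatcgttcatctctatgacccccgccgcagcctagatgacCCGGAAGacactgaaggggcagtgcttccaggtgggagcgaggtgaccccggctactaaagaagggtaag
Cox8a, chr19:7217567-7217866 minus strand: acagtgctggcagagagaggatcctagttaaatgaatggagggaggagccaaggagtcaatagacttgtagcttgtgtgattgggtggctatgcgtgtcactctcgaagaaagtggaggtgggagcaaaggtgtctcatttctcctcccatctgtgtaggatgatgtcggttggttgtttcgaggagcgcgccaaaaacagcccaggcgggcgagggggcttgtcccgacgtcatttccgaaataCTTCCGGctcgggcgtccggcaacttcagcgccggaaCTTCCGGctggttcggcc
Cox6a1, chr5:115348909-115349208 minus strand: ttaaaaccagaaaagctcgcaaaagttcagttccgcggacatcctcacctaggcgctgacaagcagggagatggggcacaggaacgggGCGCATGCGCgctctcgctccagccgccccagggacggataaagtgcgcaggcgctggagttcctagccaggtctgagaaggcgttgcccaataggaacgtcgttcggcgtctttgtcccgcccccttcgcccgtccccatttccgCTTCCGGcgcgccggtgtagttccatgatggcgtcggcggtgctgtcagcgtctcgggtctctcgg
Atp5j, chr16:84834927-84835226 minus strand: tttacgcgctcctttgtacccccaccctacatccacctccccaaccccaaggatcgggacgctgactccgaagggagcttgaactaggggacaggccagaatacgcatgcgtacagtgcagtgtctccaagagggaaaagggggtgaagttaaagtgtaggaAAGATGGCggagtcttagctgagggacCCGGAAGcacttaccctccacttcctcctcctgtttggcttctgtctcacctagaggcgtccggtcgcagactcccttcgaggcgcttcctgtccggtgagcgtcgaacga
In Cox8a and Cox6a1 the GABP match reads CTTCCGG, the reverse complement. Ndufc1, with a YY1 match, and Ndufa1 and Cox7b, with no match of the 4 motifs in the window, had log2 fold changes of 2.14, 2.15 and 1.82, so members with and without matches were among the largest.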

How the data were processed

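The data are raw counts of reads for each gene in 8 libraries, which the authors deposited as a single table of whole numbers with unequal totals. Per the submitters' processing notes, FastQC, cutadapt, STAR, featureCounts and DESeq2 were used with the mm10 build, and no versions or settings are given. Strand use and the treatment of reads that match several places are not given in the sources used here. All 55450 identifiers (100%) were found in GENCODE M21, from which positions, exon lengths and transcript sequence were taken, and 31187 rows had a count.

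Testing used edgeR 4.0.16 under R 4.3.3 (filterByExpr with minimum count 10 and minimum total 15, TMM factors, robust quasi-likelihood fit, BMDM minus microglia, Benjamini-Hochberg adjustment over all genes tested, threshold 0.05). Standard errors are derived from the F statistic. CPM are TMM-scaled. Since 3′ sequencing gives about 1 tag per transcript, CPM was not divided by length. Levels were compared between libraries, and genes were ranked by CPM only to choose which to name. Alternatives were DESeq2 1.42.0, limma-voom (limma 3.58.1) with sample quality weights, other scalings and filters, a replicate block, BMDM 1 to 3 alone, removal of Gm42418 with mitochondrial rRNA or with the mitochondrial genome, and each library left out. BMDM 4 and 5 alone, and combinations of BMDM 1 to 3 with other settings, were added after seeing the data. Ratios are sums of raw counts within a library.

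The members, the 6 gene lists and the markers were chosen with earlier results of these data known. Genes named in the text are the called members, all mitochondrial members, for each complex the 3 with the most CPM and the 2 with the largest change, the isoform sets, the largest changes with BMDM 1 to 3, and up to 3 called genes a list; any other named gene was chosen after its values were seen. For shared sequence, every 75-base window in the last 500 bases of each member's transcripts was looked up in all other GENCODE M21 transcripts; of the 83 nuclear rows, 34 shared some window, 27 overlapped a gene on the opposite strand and 6 one on the same strand. No 2 libraries of a group were alike within sampling noise (lowest chi-square per degree of freedom 21.1, BMDM 1 and 2). The fit was tested before use on simulated counts of 8 libraries with 200 changed genes. It recovered 2% of genes with a true log2 change of 1 in either direction, 18% at 2, 74% at 3 and 62% at 4. There were 6 false calls. Most changes of 1 to 2 on the log2 scale were thus missed. A gene without a call can still differ between the groups.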

Additional observations from a re-analysis of the deposited data

Results flagged for a closer look

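Among the 5 BMDM libraries, a single library stood far from the other 4 for 7 of 49 measures tested with Dixon's criterion (gap over range above 0.71). Chance passes this criterion in about 1 of 20 groups of continuous values. That rate does not apply to 4 of the 7, in which 1 library has counts and the other 4 have 0, so the number of passes is not set against it. For mt-Atp6, BMDM 2 had 164.1 CPM and the other BMDM libraries 0. For mt-Co3, BMDM 2 had 0.4925 CPM, and for mt-Co2, BMDM 5 had 0.1382 CPM, with the other BMDM libraries at 0. Ndufa4l2 was at 0.7388 CPM in BMDM 2 and 0 in the others, and Cox7b2 at 1.864 CPM in BMDM 1 and 0 to 0.2463 CPM in the others. The share of complex I in nuclear subunit counts was 39.78% in BMDM 5 and 31.85% to 33.08% in the other 4, and the share of complex IV was 22.55% in BMDM 5 and 30.94% to 33.96% in the other 4. The groups of 3 microglia libraries were not tested in this way.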

How the results depend on the processing

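Over all genes, 317 were called, against 914 by DESeq2, 721 without a filter, 2748 by limma-voom with quality weights, 2340 with BMDM 1 to 3, 2325 with BMDM 1 to 3 less Gm42418 and mitochondrial rRNA, 1861 with BMDM 1 to 3 scaled by library totals, 17 with BMDM 4 and 5, and 104 to 1138 when each library was left out. Members called higher numbered 1, against 15 by DESeq2, 15 without a filter, 2 with a filter of 10 CPM in 3 libraries, 46 by limma-voom, 50 with BMDM 1 to 3 (52 less Gm42418 and mitochondrial rRNA, and 52 by library totals), 0 with BMDM 4 and 5, and 0 to 26 when each library was left out. All 15 DESeq2 calls and 44 of the 46 limma-voom calls were among the 50. No member was called lower under any of these settings. With BMDM 4 and 5 the median log2 fold changes were 0.23 (nuclear), -1.02 (mitochondrial), 0.42 (complex I), 0.19 (complex IV) and 0.051 (complex V), and with BMDM 1 to 3 by library totals 1.61 (complex I) and 1.73 (complex V); the causes were not tested. The other 166 values of counts, medians and the ratio stayed within 1.5 times (counts) or the spread between libraries, and 13 of them, all of the mitochondrial median, had the opposite sign (0.07 with RLE factors or DESeq2, 0.16 by library totals, 0.35 with BMDM 1 to 3 and up to 0.63 with BMDM 1 to 3 by library totals). Library totals moved the median of all genes by 0.13, and to 0.40 with BMDM 1 to 3.

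Same-numbered BMDM and microglia libraries had correlations of deviations of 0.138, 0.0903 and 0.238, and each correlated best with its own number. Pairs of unlike number had -0.169 to 0.0761. The labels do not say whether the numbers pair the samples, and correlations this low cannot settle it. The main tests treat the libraries as unpaired. With the number as a replicate block in BMDM 1 to 3 and microglia, 3244 genes and 52 members were called, against 2340 and 50 without it. Standard errors such as 0.34 (Cox4i1) and 1.16 (Cox7a1) on the log2 scale limit which differences these libraries can show.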
